A study of Mus musculus with 8 samples.

Results

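Pax7 and 9 genes that mark quiescent or activated muscle stem cells were followed through knockdown of 3 chromatin remodelling subunits in cultured mouse myoblasts. The 10 genes were Pax7, the surface genes Cd34, Sdc3, Sdc4, Megf10, Vcam1, Cxcr4, Met and Calcr, and Spry1, whose product acts inside the cell. They were found by symbol through the Entrez gene identifiers of the count table, and all 10 were among its 24573 genes. Of these, 9 passed the filter on low counts and were tested among 12420 genes. Calcr did not pass.

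The cells were C2C12, an established mouse myoblast line derived from skeletal muscle, kept sub-confluent and proliferating. Each of the 4 groups had 2 libraries: a scramble control shRNA, or an shRNA against Brd9, Baf250A (gene Arid1a) or Baf180 (gene Pbrm1). All groups, the control included, carried a lentivirus and were selected and kept in puromycin. The titles name 1 construct for each target, so an effect of the target and an effect of the construct cannot be told apart. Nothing states whether the 2 libraries of each group were separate cultures, so the p-values measure only how these libraries scatter, and that scatter may be technical.

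BRD9, BAF250A and BAF180 belong to different forms of the SWI/SNF chromatin remodelling complex, which moves nucleosomes with the energy of ATP: the non-canonical BAF, canonical BAF and PBAF forms. Satellite cells, the stem cells of skeletal muscle, lie beside the fibre in a niche, and the paired-box transcription factor PAX7 marks them and is needed to maintain them. They hold their place and sense the niche through surface proteins such as syndecans, adhesion molecules and receptors, and C2C12 myoblasts keep part of this equipment while they divide.

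Library totals ran from 17763062 to 20400855 estimated counts. Each target fell in its own knockdown, with log2 changes of -2.39 for Brd9, -1.27 for Arid1a and -3.63 for Pbrm1 (adjusted p = 7.48e-05, 0.000184 and 7.04e-05, edgeR's quasi-likelihood test with Benjamini-Hochberg adjustment, which gives every adjusted p below unless another fit is named). Pbrm1 was also 0.89 higher in the Baf250A libraries (adjusted p = 0.0211), a call that ended with GC and length offsets (0.14, adjusted p = 0.233). All 7 defining myoblast markers were tested. Myod1 measured 101 to 366 CPM (the count scaled to a fixed library total after TMM normalisation) over the 8 libraries, Des 563 CPM or more, and Vim 3767 CPM or more. Libraries differed in how genes of low GC content stood: in the group of genes lowest in GC, the median deviation from each gene's mean, on the log2 scale, ran from -1.10 in Baf180 replicate 1 to 1.06 in Baf250A replicate 2. GC and length offsets remove such a trend from each library. For the 10 genes their result is also given where they end or add a call, turn a direction or move a log2 change by over 1.5 times, and for other genes where they end a call or move a called log2 change by as much. List counts are given under both. Beside them, TMM called 10.0% of all tested genes in Brd9, 29.5% in Baf250A and 34.2% in Baf180 against scramble. With the offsets 3506, 4412 and 4753 of the 12420 tested genes were called. A list count near these shares is not particular to the list.

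Pax7 itself moved in all 3 knockdowns, up in Brd9 and Baf180 and down in Baf250A. The gene lies at chr4:139737059-139833530 (GRCm38). Its level was 3.20 and 2.77 CPM in the scramble libraries, 11.6 and 10.2 in Brd9, 0.905 and 0.207 in Baf250A, and 15.4 and 13.9 in Baf180. The counts behind these were 57 and 48, 240 and 195, 18 and 4, and 266 and 254. No library of one group reached into another: the order was Baf250A, scramble, Brd9, Baf180. Pax7 rose 3.65-fold in Brd9 (log2 1.87, SE 0.34, adjusted p = 0.0101) and 4.89-fold in Baf180 (log2 2.29, SE 0.34, adjusted p = 0.00182). It fell 5.29-fold in Baf250A (log2 -2.40, SE 0.44, adjusted p = 0.00528). In bulk RNA, fewer cells that hold Pax7 transcript and less of it per cell cannot be told apart.

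The top neighbours in that order, Baf180 and Brd9, differed by 0.42 (SE 0.31, adjusted p = 0.269), which was not called, and by 0.03 with the offsets (adjusted p = 0.924). The order of these 2 groups is thus not resolved. Baf250A lay 4.27 below Brd9 (log2 -4.27, SE 0.41, adjusted p = 0.000196) and 4.69 below Baf180 (log2 -4.69, SE 0.41, adjusted p = 6.52e-05). The size of the fall in Baf250A depended on which of its libraries was used: -1.66 without replicate 2, which held 4 counts, and -3.75 without replicate 1, called both times (adjusted p = 0.0169 and 0.000765). The rise in Brd9 was not called without scramble replicate 1, scramble replicate 2 or Brd9 replicate 1 (adjusted p = 0.0615, 0.103 and 0.0534), although its size stayed between 1.77 and 1.98. Pax7 made up most of the paired-box transcript per kilobase of gene length in 3 groups: 81.6% in scramble, 93.5% in Brd9 and 97.2% in Baf180, on average. In Baf250A, where all paired-box genes together were low, its share was 21.7% and 62.5% in the 2 libraries. Pax3, the paralog used by embryonic muscle progenitors, stayed at or below 0.0353 CPM per kilobase in every group mean.

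**Figure D1:**
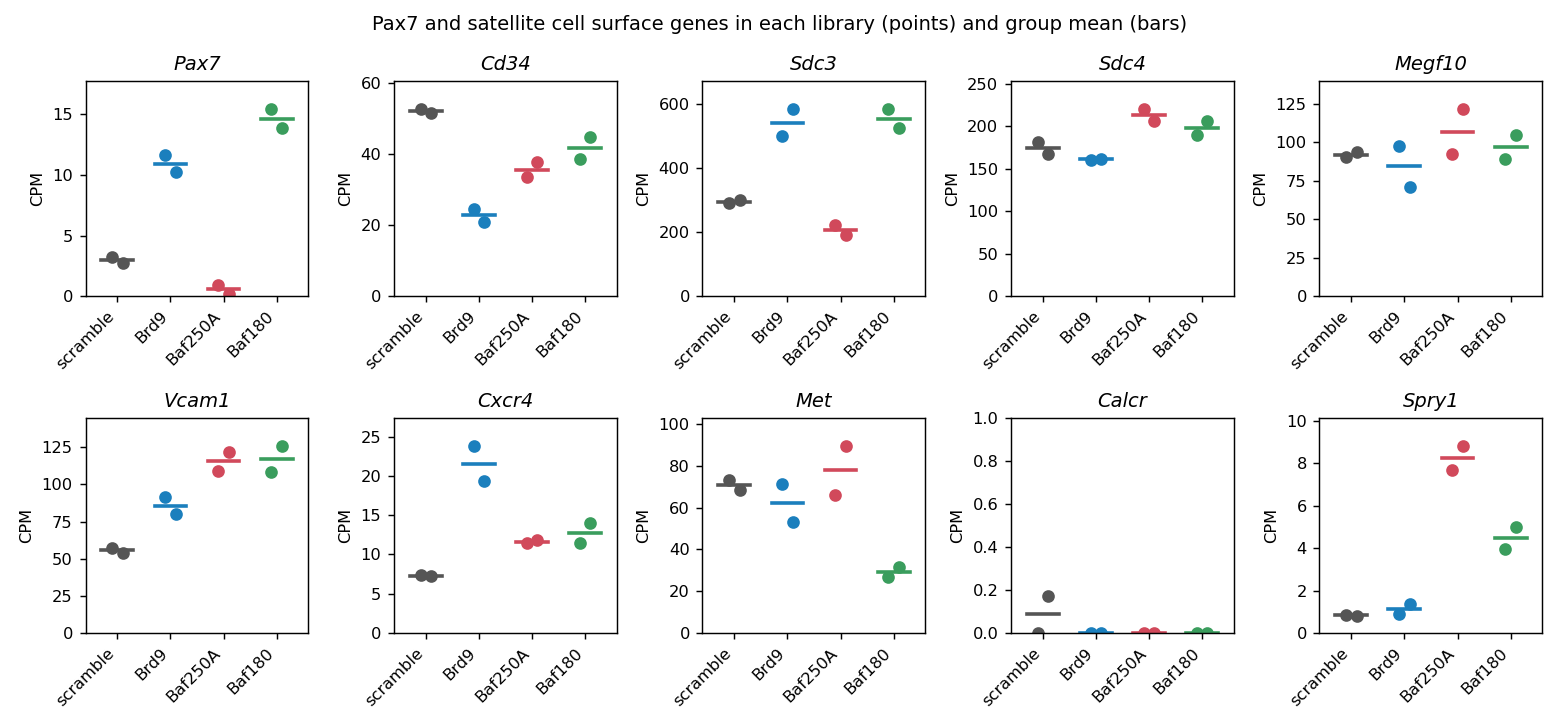
CPM of each of the 10 genes (vertical axis, linear from 0, a scale of its own in each panel) in the 4 shRNA groups; points are the 2 libraries and bars their mean. Pax7 and Sdc3 share an order, lowest in Baf250A and highest in Brd9 and Baf180, whereas Spry1 is highest in Baf250A at 7.69 and 8.83 CPM.

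Of the 9 tested genes, 5 were called in Brd9 against scramble (4 higher, 1 lower), where 10.0% of all tested genes were called, 6.45% higher and 3.57% lower. In Baf250A 6 were called (3 higher, 3 lower), where 29.5% of all tested genes were called, 15.5% higher and 14.0% lower. In Baf180 6 were called (5 higher, 1 lower), beside 34.2% of all tested genes, 17.2% higher and 17.0% lower. The median log2 change of the 9 genes was 0.43, 0.21 and 0.80 in Brd9, Baf250A and Baf180, and that of all tested genes 0.04, -0.02 and -0.02. With the offsets 7, 7 and 8 of the 9 genes were called, beside 3506, 4412 and 4753 of the 12420 tested genes. All-gene counts also changed when a library was left out, as the last section gives. The count in Brd9 dropped to 2 without either scramble library and to 3 without Brd9 replicate 1, and that in Baf250A to 3 without scramble replicate 1, scramble replicate 2 or Baf250A replicate 2.

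**Figure D2:**
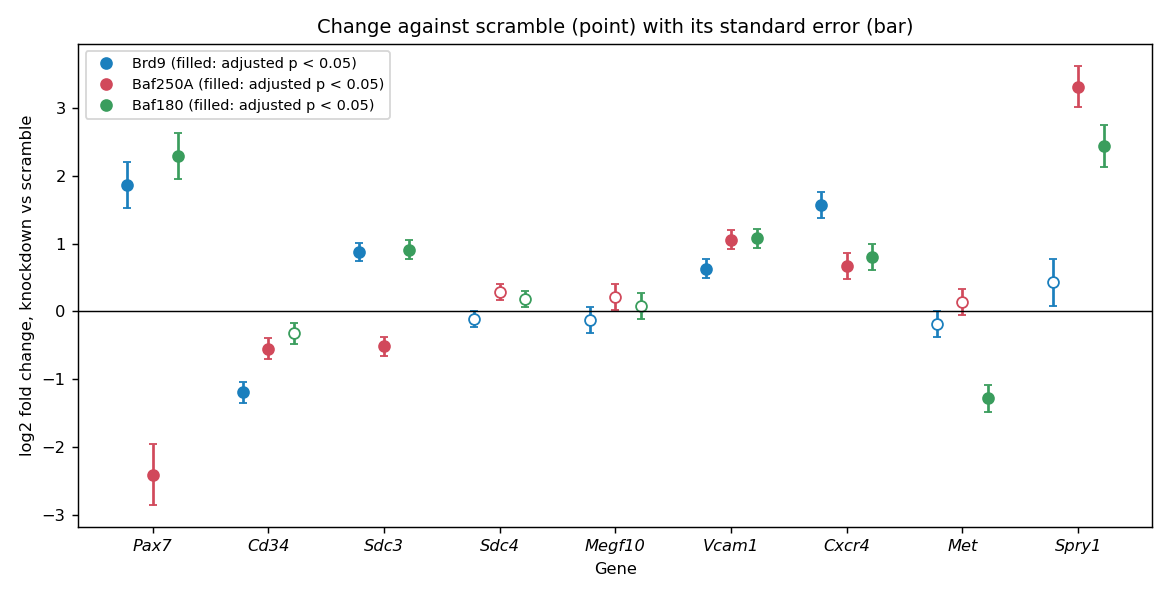
log2 fold change against scramble (vertical axis) of the 9 tested genes (horizontal axis) in Brd9, Baf250A and Baf180; bars are 1 standard error, and filled points passed an adjusted p of 0.05. Pax7 runs from -2.40 in Baf250A to 2.29 in Baf180, Vcam1 and Cxcr4 are above 0 in all 3, and Sdc4 and Megf10 have no filled point.

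The syndecans are heparan sulfate proteoglycans that bind growth factors and matrix at the cell surface, and syndecan-3 and syndecan-4 are both used to recognise satellite cells. Sdc3 was the surface gene whose groups stood in the same order as those of Pax7. Its gene is at chr4:130792537-130826318 (GRCm38), on the same chromosome as Pax7. The 250 bases before its start are shown because Sdc3 is the member whose pattern came nearest to that of Pax7; they span chr4:130792287-130792536 on the plus strand of GRCm38.p6 (RefSeq), with GC boxes (GGGCGG on either strand) in capitals.
Sdc3: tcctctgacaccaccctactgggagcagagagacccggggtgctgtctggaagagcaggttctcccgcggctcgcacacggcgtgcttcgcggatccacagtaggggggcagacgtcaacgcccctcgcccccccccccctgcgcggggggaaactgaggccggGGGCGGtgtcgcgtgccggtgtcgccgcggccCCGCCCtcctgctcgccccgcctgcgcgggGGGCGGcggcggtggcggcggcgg
This window held 3 GC boxes, no E-box (CANNTG, the letters bound by myogenic bHLH factors) and no TATA box (TATAAA), and its GC content was 76.4% against a median of 52.4% over 32851 such windows. Of those windows, 32.7% held a GC box, 66.2% an E-box and 12.4% a TATA box on either strand. These matches describe letters, not sites that were tested.

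Sdc3 measured 289 and 300 CPM in scramble, 498 and 583 in Brd9, 221 and 191 in Baf250A, and 583 and 523 in Baf180. The Brd9 and Baf180 libraries lay above all others and overlapped each other, and both Baf250A libraries lay below both scramble libraries. Sdc3 rose 1.83-fold in Brd9 (log2 0.87, SE 0.14, adjusted p = 0.00577) and 1.88-fold in Baf180 (log2 0.91, SE 0.14, adjusted p = 0.00224), and fell 1.43-fold in Baf250A (log2 -0.52, SE 0.14, adjusted p = 0.0238). With the offsets the rise in Baf180 was 0.46 (adjusted p = 0.00161). The fall in Baf250A was not called with GC and length offsets (-0.22, adjusted p = 0.0612), nor without scramble replicate 1, scramble replicate 2 or Baf250A replicate 2 (adjusted p up to 0.243). The rise in Brd9 was not called without either scramble library (adjusted p up to 0.0741). Between knockdowns, Sdc3 was lower in Baf250A than in Brd9 (log2 -1.39, adjusted p = 0.000254) and than in Baf180 (log2 -1.42, adjusted p = 0.000108, and -0.68 with the offsets, adjusted p = 9.29e-05). The difference of Baf180 from Brd9 was 0.03 (adjusted p = 0.857) and turned to -0.43 with the offsets (adjusted p = 0.00378). Sdc3 transcripts have a GC content of 58.7%, against a median of 50.5% for tested genes.

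Sdc4, the syndecan linked to focal adhesions, showed no called change against scramble. It measured 182 and 168 CPM in scramble, 161 and 162 in Brd9, 220 and 207 in Baf250A, and 189 and 207 in Baf180. Its log2 changes were -0.11 in Brd9, 0.29 in Baf250A and 0.18 in Baf180 (SE 0.12 for each, adjusted p = 0.548, 0.0978 and 0.266). With the offsets the values for Baf250A (0.33, adjusted p = 0.0117) and Baf180 (0.25, adjusted p = 0.0374) were called. Per kilobase, the order in scramble was Sdc1, Sdc4, Sdc3, Sdc2, where Sdc1 held 32.1%, Sdc4 29.8%, Sdc3 24.9% and Sdc2 13.2% of the family sum. Sdc3 held 34.6% in Brd9 and 32.5% in Baf180 but 16.5% in Baf250A, where Sdc4 led with 34.7%.

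Cd34 encodes a sialomucin of quiescent satellite cells and of blood and endothelial progenitors. It measured 52.6 and 51.5 CPM in scramble, 24.6 and 20.9 in Brd9, 33.4 and 37.7 in Baf250A, and 38.4 and 44.7 in Baf180, so that every knockdown library lay below both scramble libraries. It fell 2.28-fold in Brd9 (log2 -1.19, SE 0.15, adjusted p = 0.00191) and 1.46-fold in Baf250A (log2 -0.55, SE 0.15, adjusted p = 0.0253). In Baf180 its log2 change was -0.32 (SE 0.15, adjusted p = 0.120), which was not called. The call in Baf250A was lost when any 1 of its 4 libraries was left out (adjusted p up to 0.156). Thus Cd34 was called opposite to Pax7 in Brd9 and in the same direction in Baf250A. Markers of endothelial cells summed to 0.393 to 0.776 CPM in all libraries, none of the 8 passed the filter, and Tie1 and Emcn were at 0.

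Podxl and Podxl2 are the relatives of Cd34 in the sialomucin family. Podxl, which encodes podocalyxin, fell in Baf250A (log2 -2.27, adjusted p = 7.48e-05) and Baf180 (log2 -0.86, adjusted p = 0.00687). Over all relatives of the 10 genes, 13 of 24 were tested, and 3 were called higher and 1 lower in Brd9, 2 higher and 1 lower in Baf250A, and 4 higher and 3 lower in Baf180 (median log2 change 0.19, 0.14 and -0.01). With the offsets these were 4 and 2, 2 and 3, and 6 and 3 (median 0.27, 0.13 and 0.38), so the median in Baf180 turned. Of all tested genes, TMM called 10.0%, 29.5% and 34.2% in these 3 comparisons, so the count in Baf250A did not stand out. Podxl2 rose in Brd9 (log2 1.50, adjusted p = 0.00642) and Baf180 (log2 2.44, adjusted p = 0.000272, and 1.85 with the offsets), and per kilobase it supplied 39.1% of the 3 sialomucin genes in Baf180 against 8.38% in scramble. Cd34 still supplied 54.4% in Baf180 and 49.6% in Brd9, compared with 78.0% in scramble.

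Vcam1 encodes an adhesion molecule that binds the integrin formed with the alpha 4 chain and marks satellite cells in mouse muscle. It measured 57.2 and 53.8 CPM in scramble, 91.7 and 79.9 in Brd9, 109 and 122 in Baf250A, and 109 and 126 in Baf180. Both libraries of each knockdown exceeded both scramble libraries, and those of Baf250A and Baf180 overlapped. Vcam1 rose 1.55-fold in Brd9 (log2 0.63, SE 0.14, adjusted p = 0.0255), 2.08-fold in Baf250A (log2 1.06, SE 0.14, adjusted p = 0.00109) and 2.11-fold in Baf180 (log2 1.08, SE 0.14, adjusted p = 0.00105). The call in Brd9 ended without either scramble library or Brd9 replicate 1 (adjusted p up to 0.213). Its direction was thus that of Pax7 in Brd9 and Baf180 and opposite in Baf250A. Baf250A and Baf180 differed by -0.02 (adjusted p = 0.903), and by -0.95 with the offsets (adjusted p = 4.07e-05), under which the changes against scramble were 0.39 in Brd9, 0.64 in Baf250A and 1.59 in Baf180, all called. Vcam1 transcripts are of low GC content, 44.1%. Itga4, the integrin chain, chosen after its values were seen, gave -0.97, -1.19 and -1.35 in the 3 knockdowns and was not called in any (adjusted p = 0.197, 0.0883 and 0.0630); with the offsets the Brd9 and Baf250A values were -1.48 and -2.17 and were called (adjusted p = 0.0323 and 0.00470).

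Vcam1 is also expressed by other cells of muscle, and some markers of fibro-adipogenic progenitors were called higher as well. Of the 6 markers 5 were tested, and 4 were called higher in Brd9, 2 in Baf250A and 3 in Baf180, with none lower (median log2 change 1.48, 0.66 and 1.07). Of all tested genes 6.45%, 15.5% and 17.2% were called higher under TMM. With the offsets 4, 2 and 5 of the markers were called higher, and their median was 1.20, 0.13 and 1.44. Their summed level was 38.9 to 40.7 CPM in scramble, 75.7 to 92.3 in Brd9, 112 to 127 in Baf250A and 79.9 to 85.5 in Baf180. Ly6a, which myoblasts can also express, rose in all 3 (log2 1.00, 1.99 and 1.07, adjusted p = 0.00734, 9.36e-05 and 0.00243). So did Pdgfra (log2 1.48, 2.15 and 1.58, adjusted p = 0.00354, 0.000218 and 0.00126), while Cd55 rose in Brd9 (log2 2.18, adjusted p = 0.00917). Dpp4 was at or near 0, with at most 0.0578 CPM in a library. The cultures were of the C2C12 line, so these are transcript levels in that line and not a measure of such cells. Their relation to the Vcam1 result was not tested.

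Cxcr4 encodes the receptor for the chemokine CXCL12, which guides migrating muscle progenitors. Its gene is at chr1:128588199-128592299 (GRCm38). The window before its start is shown because receptor and ligand transcripts both rose in every knockdown; it spans chr1:128592300-128592549 on the minus strand of GRCm38.p6 (RefSeq), with 3 GC boxes and, near its end, 2 overlapping TATAAA matches (1 per strand) in capitals.
Cxcr4: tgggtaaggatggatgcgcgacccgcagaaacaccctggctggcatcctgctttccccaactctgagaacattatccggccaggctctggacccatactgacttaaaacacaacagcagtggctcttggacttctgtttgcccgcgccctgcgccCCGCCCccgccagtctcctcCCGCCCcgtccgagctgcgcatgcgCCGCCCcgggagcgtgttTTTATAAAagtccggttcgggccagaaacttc
The window held no E-box, and its GC content was 61.2%.

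Cxcr4 measured 7.36 and 7.22 CPM in scramble, 23.9 and 19.3 in Brd9, 11.4 and 11.8 in Baf250A, and 11.5 and 14.0 in Baf180. All 6 knockdown libraries lay above the scramble libraries, and the Brd9 libraries lay above the rest. It rose 2.96-fold in Brd9 (log2 1.57, SE 0.19, adjusted p = 0.00150), 1.59-fold in Baf250A (log2 0.67, SE 0.19, adjusted p = 0.0299) and 1.75-fold in Baf180 (log2 0.80, SE 0.19, adjusted p = 0.0138). The call in Baf250A ended without either scramble library or Baf250A replicate 2 (adjusted p up to 0.146), and that in Baf180 without either scramble library (adjusted p up to 0.0876). Cxcr4 was lower in Baf250A and Baf180 than in Brd9 (log2 -0.89 and -0.76, adjusted p = 0.00897 and 0.0115), and neither call held throughout. The first ended without Brd9 replicate 1 or Baf250A replicate 2 (adjusted p = 0.0668 and 0.0533). The second ended without Brd9 replicate 1 or Baf180 replicate 1 (adjusted p = 0.101 and 0.0825) and with the offsets (-0.32, adjusted p = 0.0605). Cxcl12, its ligand, measured 52.2 and 49.3 CPM in scramble, 133 and 102 in Brd9, 213 and 232 in Baf250A, and 155 and 202 in Baf180. It rose by 1.21, 2.13 and 1.81 on the log2 scale in the same order (adjusted p = 0.00370, 8.94e-05 and 0.000239), so that the ligand was highest in Baf250A and the receptor in Brd9.

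Met encodes the receptor tyrosine kinase for hepatocyte growth factor, a signal that wakes quiescent satellite cells. It measured 73.0 and 68.6 CPM in scramble, 71.2 and 53.3 in Brd9, 66.1 and 89.5 in Baf250A, and 26.9 and 31.4 in Baf180. The Baf180 libraries stood below all others, and the other 3 groups overlapped. Met fell 2.43-fold in Baf180 (log2 -1.28, SE 0.20, adjusted p = 0.00220), opposite to Pax7, and by less with the offsets (-0.83, adjusted p = 8.30e-05). Its values in Brd9 (-0.19, SE 0.19, adjusted p = 0.536) and Baf250A (0.14, SE 0.19, adjusted p = 0.604) were not called. With the offsets they were -0.54 and -0.32 and were called (adjusted p = 0.00144 and 0.0143), so the direction in Baf250A turned. Hgf, its ligand, chosen after its values were seen, rose in Brd9 (log2 1.09, adjusted p = 0.0408) and Baf250A (log2 1.67, adjusted p = 0.00338, and 0.90 with the offsets), and gave 0.36 in Baf180 (adjusted p = 0.349), a value of 1.04 with the offsets (adjusted p = 0.000369).

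Megf10 encodes an EGF-repeat receptor that takes part in the balance between proliferation and differentiation of satellite cells. It measured 90.2 and 94.1 CPM in scramble, 97.8 and 71.1 in Brd9, 92.2 and 122 in Baf250A, and 89.3 and 105 in Baf180, and all 4 groups overlapped. Its log2 changes of -0.13, 0.21 and 0.08 (SE 0.19 for each) were not called (adjusted p = 0.684, 0.402 and 0.774). The offsets gave -0.40 in Brd9 and 0.34 in Baf180, both called (adjusted p = 0.0106 and 0.0145), and -0.05 in Baf250A. Calcr, the calcitonin receptor of quiescent satellite cells, had 0 and 3 counts in the scramble libraries and 0 in the other 6. The library with these 3 counts, scramble replicate 2, also had more genes with a count than the rest, 16402 against 14195 to 14768. A count of 0 allows up to 3 counts, or 0.145 to 0.174 CPM depending on the library, for counting error only, so no difference was detectable at this depth. Calcb, from the list of ligands and partners of the surface genes, was at 0 in every library.

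Spry1 encodes Sprouty1, an inhibitor of receptor tyrosine kinase signalling to ERK that helps satellite cells return to quiescence. Its gene is at chr3:37639947-37644599 (GRCm38). The window before its start is shown because Spry1 made the largest change of the 9 tested genes against scramble; it spans chr3:37639697-37639946 on the plus strand of GRCm38.p6 (RefSeq), where GENCODE M21 places an exon of the antisense gene Gm42922. Capitals mark 2 E-boxes and 1 GC box.
Spry1: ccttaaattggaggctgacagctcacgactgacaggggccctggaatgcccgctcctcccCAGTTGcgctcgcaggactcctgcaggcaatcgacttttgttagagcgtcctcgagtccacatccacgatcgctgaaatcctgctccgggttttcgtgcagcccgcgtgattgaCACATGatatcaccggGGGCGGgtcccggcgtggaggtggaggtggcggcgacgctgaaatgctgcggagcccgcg
The sources used here do not say whether counting used strand. Whether Gm42922 also overlaps the counted exons of Spry1 was not examined, so any share of its reads in the Spry1 counts is not known. The window had a GC content of 62.4%.

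Spry1 was nearly silent in scramble at 0.842 and 0.809 CPM and in Brd9 at 0.873 and 1.36 CPM. It measured 7.69 and 8.83 CPM in Baf250A and 3.94 and 5.02 in Baf180. The underlying counts were 15 and 14 in scramble, 18 and 26 in Brd9, 153 and 171 in Baf250A, and 68 and 92 in Baf180. Spry1 rose 9.93-fold in Baf250A (log2 3.31, SE 0.30, adjusted p = 0.000131) and 5.39-fold in Baf180 (log2 2.43, SE 0.31, adjusted p = 0.000904), and gave 0.43 in Brd9 (SE 0.35, adjusted p = 0.434). It was higher in Baf250A than in Baf180 (log2 0.88, SE 0.25, adjusted p = 0.0130), a call that ended without Baf250A replicate 2 or Baf180 replicate 1 (adjusted p up to 0.0845). Spry1 thus rose with Pax7 in Baf180 and against it in Baf250A.

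Per kilobase, Spry2 was the main Sprouty gene in all 4 groups, at 74.9% of the family sum in scramble, and Spry1 went from 1.84% there to 15.7% in Baf250A and 8.81% in Baf180. Spry4 fell in Brd9 (log2 -1.23, adjusted p = 0.0125) and Baf180 (log2 -1.54, adjusted p = 0.00227). Among 10 genes induced by ERK as feedback, none was called higher and 5 lower in Brd9, none higher and 2 lower in Baf250A, and 1 higher and 6 lower in Baf180, with median log2 changes of -0.34, -0.0027 and -0.59. With the offsets these were none and 5, 1 and 4, and 2 and 6 (median -0.38, -0.19 and -0.67). Of all tested genes, 3.57%, 14.0% and 17.0% were called lower under TMM. Dusp4, a phosphatase of MAP kinases, fell in all 3 (log2 -0.66, -0.74 and -0.78, adjusted p = 0.0102, 0.00285 and 0.00227), and the Baf250A value was -0.39 with the offsets. Dusp6, the ERK phosphatase, fell in Brd9 and Baf180 (log2 -0.95 and -0.79, adjusted p = 0.00656 and 0.00617).

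Whether the other 8 tested genes follow Pax7 was then asked comparison by comparison. In Brd9 against scramble, 3 were called in the direction of Pax7 (Sdc3, Vcam1, Cxcr4) and 1 against it (Cd34). In Baf250A, 2 were called with it (Cd34, Sdc3) and 3 against it (Vcam1, Cxcr4, Spry1). In Baf180, 4 were called with it (Sdc3, Vcam1, Cxcr4, Spry1) and 1 against it (Met). These comparisons share the scramble libraries. Over all tested genes, 6.45% were called higher in Brd9, 14.0% lower in Baf250A and 17.2% higher in Baf180, the directions of Pax7. With the offsets, Sdc3, Vcam1 and Cxcr4 were called with Pax7 in Brd9, and Cd34, Megf10 and Met against it. In Baf250A, Cd34 and Met were then called with it, and Sdc4, Vcam1, Cxcr4 and Spry1 against it. In Baf180, Sdc3, Sdc4, Megf10, Vcam1, Cxcr4 and Spry1 were called with it and Met against it. With TMM, Sdc3 was the 1 gene of the 8 called in the direction of Pax7 in all 3. Its limits in Brd9 and Baf250A are given above. No gene was called so in all 3 with the offsets. How many of all tested genes share this pattern was not counted.

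Between knockdowns, 6 of the 9 genes were called in Baf250A against Brd9 (25.0% of all tested genes), 5 in Baf180 against Brd9 (49.6%) and 4 in Baf250A against Baf180 (62.5%). The first count dropped to 3 without Baf250A replicate 2 and the second to 3 without Brd9 replicate 1 or Baf180 replicate 1, while the third was 8 with the offsets. Beside the lower Pax7 of Baf250A against Brd9, Sdc3 and Cxcr4 were called lower and Cd34, Sdc4 and Spry1 higher. The Cd34 call (log2 0.64, adjusted p = 0.0158) ended without Brd9 replicate 2 or Baf250A replicate 2 (adjusted p = 0.0930 and 0.0875), and the limits of the Cxcr4 call are given above. Sdc4 there was a marginal call (log2 0.40, adjusted p = 0.0390) that 10 of 18 other settings ended, upper-quartile scaling and the 4 libraries alone among them. Beside the lower Pax7 of Baf250A against Baf180, Sdc3 was called lower and Met (log2 1.42, adjusted p = 0.000399) and Spry1 higher. With the offsets the last 2 were 0.51 for Met and 1.58 for Spry1, both called (adjusted p = 0.000779 and 0.000462). Between Baf180 and Brd9, where Pax7 was not called, Cd34 (log2 0.87), Vcam1 (log2 0.45) and Spry1 (log2 2.01) were higher, and Cxcr4 and Met (log2 -1.09) lower, in Baf180 (adjusted p = 0.00482, 0.0264, 0.00347, 0.0115 and 0.00495). The Vcam1 call ended under 9 of 18 settings but was larger with the offsets (1.20, adjusted p = 5.75e-05), and Met was smaller with them (-0.29, adjusted p = 0.0293).

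The offsets also called differences between knockdowns that TMM did not. In Baf250A against Brd9 this was Megf10 (0.35, adjusted p = 0.0113), while Vcam1, not called under either, went from 0.43 to 0.25. In Baf180 against Brd9 these were Sdc4 (0.37, adjusted p = 0.00892) and Megf10 (0.74, adjusted p = 0.000531), beside the Sdc3 value given above. In Baf250A against Baf180 they were Cd34 (-0.28, adjusted p = 0.0274), Megf10 (-0.39, adjusted p = 0.00462) and Cxcr4 (-0.66, adjusted p = 0.00130), beside Vcam1. Cd34, Cxcr4, Megf10 and Vcam1 were then, like Pax7, lower in Baf250A than in Baf180, so how many genes followed Pax7 in that comparison depended on the offsets.

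Likeness to Pax7 was measured as the root mean square difference between log2 CPM profiles, each centred on its mean over the 8 libraries. It was ranked over 9648 tested genes whose mean level reached 5 CPM. Genes with provisional names (Gm, Rik, LOC, NM or numbered) were left out. For Sdc3 this distance was 1.33, and 240 genes (2.49%) were as near or nearer. With the offsets it was 1.39, and 494 genes (5.12%) were as near or nearer. For Cxcr4 it was 1.75 (27.2% of genes as near or nearer), and 1.41 with the offsets (6.03%), close to Sdc3. For Vcam1 it was 1.98 (58.7%), and 1.63 with the offsets (25.9%). Cd34, Sdc4, Megf10 and Met lay at 1.99 to 2.36 (59.7% to 88.8%), and at 1.76 to 1.94 with the offsets. Spry1, whose own mean lay below 5 CPM and which was set against the same genes, was farthest at 2.76 (98.6%), and at 2.78 with the offsets. Sdc3 was the nearest of the 8 under both, but its lead over Cxcr4 was small with the offsets. The measure weighs size as well as direction, and Sdc3 moved less than Pax7 in each group. Under TMM, Sdc4 and Megf10 were not called in any knockdown against scramble and lay at 1.99 and 2.02. A distance near these, as for Vcam1, thus does not show likeness to Pax7. Pax7 was farthest from its own mean in Baf250A replicate 2, at -3.71 on 4 counts, so every distance leans on that library.

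The 5 genes nearest to Pax7 were Enho (distance 0.39), S100a16 (0.64), Adamts4 (0.64), Ucp2 (0.64) and P2rx6 (0.66). Enho, which encodes the peptide adropin, measured 6.85 and 7.80 CPM in scramble, 22.7 and 22.7 in Brd9, 1.31 and 1.03 in Baf250A, and 35.0 and 24.0 in Baf180. Its groups did not overlap and stood in the order of Pax7. Baf180 against Brd9 was not called for Enho (log2 0.37, adjusted p = 0.156). With the offsets this difference turned to -0.46 (adjusted p = 0.0246). All 5 were called higher in Brd9 and Baf180 and lower in Baf250A, which the choice by likeness to Pax7 fixes in large part, so these calls are a description. P2rx6 was at the limit in Baf250A (log2 -1.09, adjusted p = 0.0484, and -0.77 with the offsets, adjusted p = 0.0601). With the offsets 3 of the 5 (Enho, Adamts4 and Ucp2) were again among the 5 nearest.

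**Figure D3:**
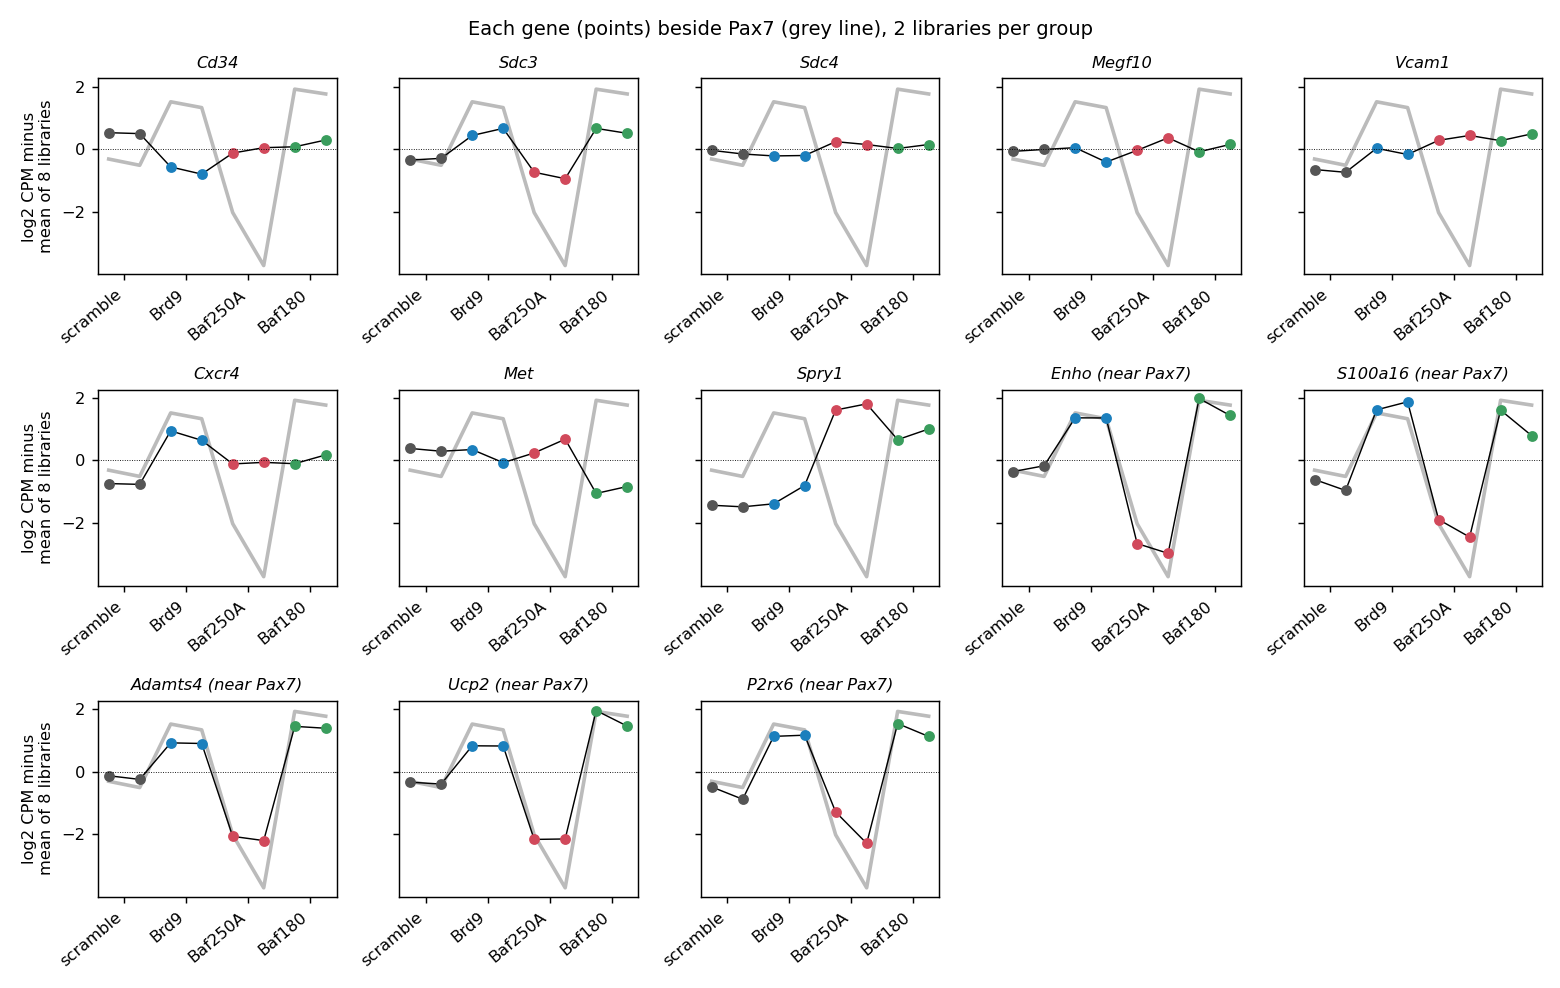
log2 CPM minus the gene's mean over 8 libraries (vertical axis) for the other 8 tested genes and the 5 genes nearest to Pax7, by shRNA group (horizontal axis, 2 libraries each); the grey line is Pax7, and lines only join points, since libraries have no order. Sdc3 bends with Pax7 at a smaller size (distance 1.33), Enho lies almost on it (0.39), and Spry1 runs apart from it in Baf250A (2.76).

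Other satellite cell genes give the setting. For every list below, the shares of all tested genes called higher under TMM were 6.45%, 15.5% and 17.2% in Brd9, Baf250A and Baf180. Those called lower were 3.57%, 14.0% and 17.0%. Of 19 further surface and adhesion genes 17 were tested, and 6 were called higher and none lower in Brd9, 2 higher and 5 lower in Baf250A, and 10 higher and none lower in Baf180 (median log2 change 0.19, -0.22 and 0.48). With the offsets these were 7 and 2, 2 and 7, and 8 and none (median 0.13, -0.06 and 0.30). Notch3, a receptor of the Notch pathway that holds satellite cells quiescent, rose in Brd9 and Baf180 (log2 2.10 and 2.02, adjusted p = 0.000198 and 0.000118) and gave 0.03 in Baf250A (adjusted p = 0.893). Cdh15, which encodes M-cadherin, fell in Baf250A (log2 -2.46, adjusted p = 8.29e-05) and rose in Baf180 (log2 0.81, adjusted p = 0.0130; 0.30 with the offsets). Itga7, the laminin-binding integrin chain of muscle, fell in Baf250A (log2 -2.06, adjusted p = 0.000119).

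Of 18 further transcription factors of satellite cells 15 were tested, and 7 were called higher and none lower in Brd9, with 5 higher and 2 lower in each of Baf250A and Baf180 (median log2 change 0.58, 0.04 and 0.40). With the offsets these were 9 and 2, 4 and 1, and 7 and 2 (median 0.69, 0.08 and 0.30). Id3, an inhibitor of bHLH factors, rose in all 3 (log2 0.58, 0.72 and 1.09, adjusted p = 0.0378, 0.00734 and 0.00113). Sox8 rose in Brd9 and Baf180 (log2 0.99 and 2.76, adjusted p = 0.0349 and 0.000111), and Hey1, a Notch target, in Brd9 (log2 1.63, adjusted p = 0.00295). Of the 7 myoblast markers, 1 was called higher and 1 lower in Brd9, 4 lower in Baf250A, and 4 higher and 2 lower in Baf180, and with the offsets 2 higher and 3 lower in Brd9 and the same counts in the others. Myf5, a target of PAX7 in satellite cells, fell in Baf250A (log2 -0.86, adjusted p = 0.0331) and in Baf180 (log2 -1.49, adjusted p = 0.00384), where Pax7 rose. With the offsets these were -1.54 and -0.82, both called. Myod1 rose in Baf180 (log2 1.09, adjusted p = 0.00295, and 0.62 with the offsets).

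All 9 cofactors and regulators of PAX7 were tested; none was called higher and 2 lower in Brd9, none in either direction in Baf250A, and 2 higher and 1 lower in Baf180 (median log2 change -0.03, 0.03 and -0.06). With the offsets both higher calls in Baf180 ended and 1 gene was called higher in Baf250A (median -0.20, 0.13 and -0.13). The TMM count in Baf180 was near the 34.2% of all tested genes called there. Carm1, the methyltransferase that modifies PAX7, fell in Brd9 (log2 -0.71, adjusted p = 0.0143), as did Wdr5 (log2 -0.50, adjusted p = 0.0322), a subunit of the histone methyltransferase complex that PAX7 recruits. Paxbp1, which links PAX7 to that complex, fell in Baf180 (log2 -1.21, adjusted p = 0.0253).

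Of 17 ligands and partners of the surface genes 13 were tested, and 5 were called higher and 1 lower in Brd9, 4 higher and 2 lower in Baf250A, and 5 higher and 1 lower in Baf180 (median log2 change 0.51, 0.19 and 0.13). With the offsets these were 7 and 2, 5 and 2, and 5 and 1 (median 0.46, 0.36 and 0.06). Collagen V is a ligand of the calcitonin receptor in the satellite cell niche. Col5a3 rose in Brd9 and Baf180 (log2 1.96 and 1.30, adjusted p = 0.000488 and 0.00176, the latter 0.80 with the offsets) and fell in Baf250A (log2 -0.92, adjusted p = 0.0102). Col5a1 rose in Brd9 and Baf180 (log2 0.61 and 1.45, adjusted p = 0.0306 and 0.000261). Of 14 markers of differentiated myotubes 8 were tested, and 5, 1 and 3 were called higher and none, 2 and 2 lower, the same counts as with the offsets. Their median log2 change was 1.78, -0.46 and 0.43, and 1.82, -0.30 and 0.21 with the offsets. The summed level of all 14 was 26.2 to 29.5 CPM in scramble and 23.9 to 30.5 in Brd9. It was 39.9 to 44.6 in Baf250A and 101 to 123 in Baf180. In Brd9 and Baf250A the sum thus did not move as the median did. Acta1, skeletal actin, rose in Baf250A and Baf180 (log2 1.20 and 2.64, adjusted p = 0.00334 and 8.03e-05). It was the 1 marker called higher in Baf250A, where 2 were called lower. Ryr1 rose in Brd9 and Baf180 (log2 2.07 and 1.51, adjusted p = 0.0105 and 0.0186).

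**Figure D4:**
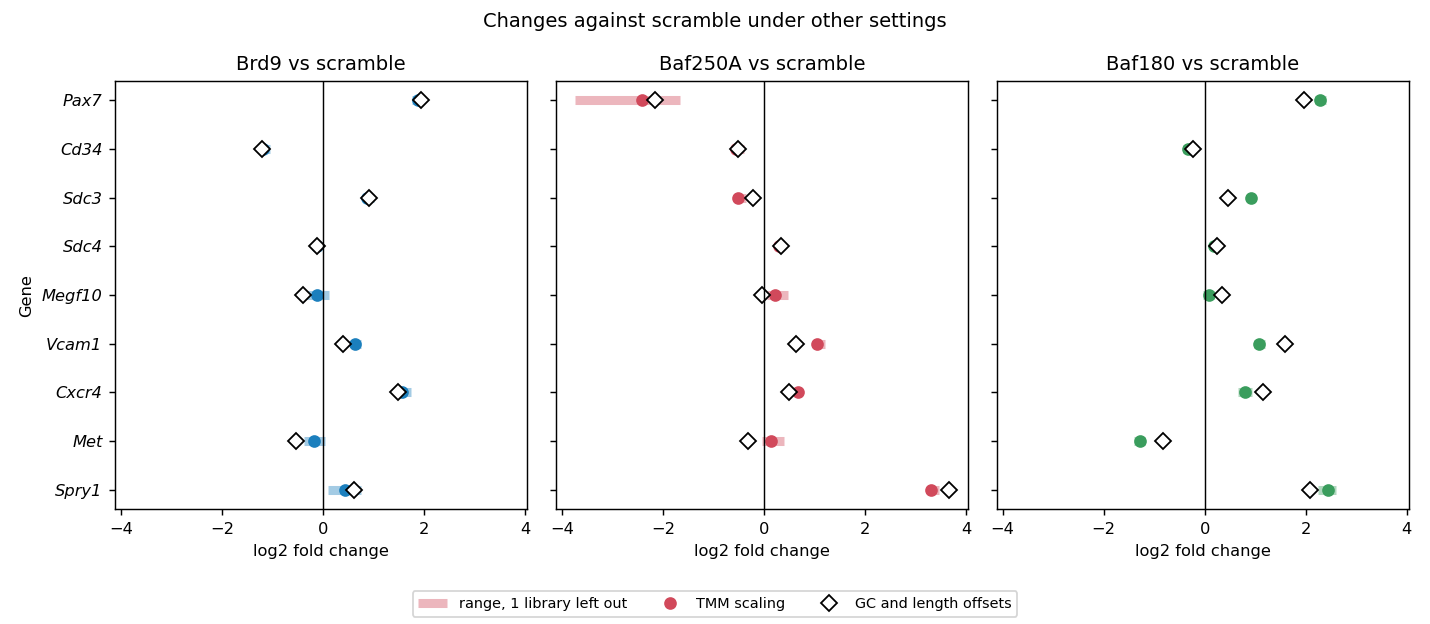
log2 fold change against scramble (horizontal axis) of the 9 tested genes (vertical axis) in Brd9, Baf250A and Baf180; filled points are the TMM fit, diamonds the fit with GC and length offsets, and pale bars the range with 1 library left out at a time. Pax7 in Baf250A has the widest bar, -3.75 to -1.66, and the offsets move Vcam1 in Baf180 from 1.08 to 1.59 and Sdc3 there from 0.91 to 0.46.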

How the data were processed

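RNA from 8 libraries (4 groups of 2) was sequenced on a BGISEQ-500 per the labels. Estimated counts per gene, which the authors made and did not normalise, are deposited in 1 table with a length column in bases (another value, per the file headers). Tools in the submitters' processing notes are RSEM, Bowtie2, HISAT2, StringTie, Cufflinks and DESeq2, on mm10, without roles or versions. Of 24573 genes, 24479 were named by gene ID and 9 by accession from a RefSeq table on GRCm38, and 85 were not matched.

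Counts were rounded, filtered with filterByExpr (12420 genes), scaled by TMM and fitted over all 8 libraries with edgeR 4.0.16 (quasi-likelihood, R 4.3.3). P-values were adjusted over all tested genes (Benjamini-Hochberg, called below 0.05). Standard errors come from the log2 fold change and the square root of its F statistic. CPM use TMM-scaled totals; CPM per kilobase divide by the deposited length. GC and length offsets are loess trends (span 0.3) per library, with GC from GENCODE M21 transcripts for 98.95% of tested genes; they also remove any change that itself follows GC content. Other settings used limma 3.58.1 and DESeq2 1.42.0, RLE and upper-quartile scaling, other filters, the 4 libraries compared alone, a replicate block, and each library left out. The fit was also run on counts simulated with its own spread per gene, the same in all groups, and without a GC trend. Such a run cannot address the GC differences between libraries or a scatter that differs between groups.

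The 10 genes and all lists were chosen with earlier results of these data known. Besides them, the text names the 3 targets, the 5 genes nearest to Pax7 (mean of at least 5 CPM, prior count 2, provisional names left out), up to 3 genes of each list with the lowest unadjusted p against scramble, and myoblast markers. Hgf, Itga4, relatives given by their share of a family, and genes listed at or near 0 were added after their values were seen. Promoter windows are RefSeq sequences on GRCm38.p6, kept for 8 of the 10 genes. Windows on chromosome 18, where Megf10 lies, were left out, and Vcam1 had none among those kept. Only the windows of Sdc3, Cxcr4 and Spry1 are shown. That of Sdc4, which overlaps no exon of its gene, and windows that overlap an exon of their own gene are not. No unique molecular identifiers are stated.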

Additional observations from a re-analysis of the deposited data

How the results depend on the processing

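Of 966 values recomputed under 18 other settings, 861 kept direction and side of the threshold, 53 lost a call, 25 gained one and 27 changed sign. With 1 library left out, the members called ranged from 2 to 5 in Brd9, 3 to 6 in Baf250A and 5 to 6 in Baf180 against scramble, 3 to 7 in Baf250A against Brd9, 3 to 5 in Baf180 against Brd9 and 3 to 4 in Baf250A against Baf180; all genes called ranged from 231 to 1558, 1171 to 4114, 1560 to 4514, 1381 to 3371, 1150 to 6605 and 5455 to 7896. With GC and length offsets, and with these and the replicate block, 8 members were called in Baf250A against Baf180, where the fit without them called 4. In that comparison all genes called were 7766 in the main fit, and 6490 to 7893 over the settings other than 1 library left out. All genes called in Brd9 against scramble were 1244, but 2588 with no filter, 2540 with the 4 libraries alone, 721 with the replicate block, 3506 with the offsets and 2874 with both; with the offsets alone and with both they were 5305 and 4881 in Baf250A against Brd9 and 3992 and 3508 in Baf180 against Brd9.

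The values that changed sign were not called under TMM. With the offsets, and with these and the replicate block, Baf250A against scramble gave -0.048 for Megf10 both times and -0.32 for Met both times, Baf180 against Brd9 gave -0.43 for Sdc3 both times, and Baf250A against Baf180 gave -0.39 for Megf10 both times. Sdc3 in Baf180 against Brd9 was -0.062 with upper-quartile scaling and -0.0045 with a mean of at least 5 CPM. Vcam1 in Baf250A against Baf180 was 0.0021 with RLE scaling and with DESeq2, 0.017 with upper-quartile scaling and 0.019 with the 4 libraries alone. With a library left out, Megf10 ran from -0.35 to 0.11 in Brd9 and -0.042 to 0.19 in Baf180 against scramble, -0.013 to 0.45 in Baf180 against Brd9 and -0.039 to 0.37 in Baf250A against Baf180. Met ran from -0.39 to 0.031 in Brd9 and -0.044 to 0.40 in Baf250A, Sdc3 from -0.083 to 0.15 in Baf180 against Brd9, and Vcam1 from -0.13 to 0.10 and Cxcr4 from -0.27 to 0.015 in Baf250A against Baf180. The cause was not tested.

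Replicate numbers in the titles were not taken to pair the libraries in the main fit. Same-numbered deviations correlated from -0.48 to 0.46 between groups, across genes. With 2 libraries per group these values cannot settle whether the libraries are paired. The replicate block called 4, 5 and 6 members in Brd9, Baf250A and Baf180 against scramble, without Vcam1 in Brd9 (adjusted p = 0.0585) and Cxcr4 in Baf250A (adjusted p = 0.0540). It also ended the calls of Sdc4 in Baf250A and Vcam1 in Baf180 against Brd9 (adjusted p = 0.0866 and 0.0519). Depth limits Calcr, Spry1 in scramble and Pax7 in Baf250A, which rest on few counts. Genes that are not among the 10 were recomputed with the offsets alone.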
